A study of Mus musculus with 19 samples.

Results

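Interferon-stimulated genes were followed as a set of 38 listed by name for their known function. All 38 were present among the 24421 gene symbols of the deposited count tables, and all 38 passed the filter on low counts in every fit, so the counts below cover the whole set. Bulk RNA sequencing covered 2 kinds of splenic dendritic cell from C57BL6 mice: the cDC1, known for cross-presentation to CD8 T cells, and the cDC2, known for priming CD4 T cells. Both came from mice deficient in both Xbp1 and the gene of IRE1 (Ern1), labelled Xbp1-Ire1 KO, from mice deficient in Xbp1 alone, labelled Xbp1 KO, and from WT mice. IRE1 senses stress in the endoplasmic reticulum and cuts Xbp1 mRNA so that it can encode the active transcription factor, and the design compares the genotypes within each kind of cell. There were 3 libraries in each of the 6 groups, except 4 in cDC2 WT, 19 in all, with total counts of 10606864 to 16209469 per library. The labels name no Cre driver, no age and no sex, nor whether each replicate was another mouse, so the p-values below measure the spread between these libraries, which may be technical.

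The WT libraries carry 2 kinds of description. Replicates 1 and 2 of cDC1 WT and of cDC2 WT are described by floxed Xbp1 and IRE1 alleles, here called the fl-fl libraries, and replicate 3 of cDC1 WT and replicates 3 and 4 of cDC2 WT are described as WT. The labels do not call this a batch. Markers followed the sort: the 8 cDC1 markers summed to 8419 to 11100 counts per 1e6 counts (CPM) in the cDC1 libraries and 1053 to 1275 CPM in the cDC2 libraries, and the 7 cDC2 markers summed to 26.04 to 108 CPM in the cDC1 libraries and 2318 to 3589 CPM in the cDC2 libraries. All CPM values are scaled by TMM over the 19 libraries. Replicate 3 of cDC1 Xbp1 KO held 1643 CPM of pancreatic acinar transcripts, and no other library more than 8.14 CPM. Xbp1 counts averaged 339 ± 23.9 CPM in cDC1 Xbp1-Ire1 KO, 103 ± 12.6 CPM in cDC1 Xbp1 KO and 179 ± 52.8 CPM in cDC1 WT, and Ern1 counts 62.4 ± 10.1 CPM in cDC1 Xbp1-Ire1 KO, 31.7 ± 3.48 CPM in cDC1 Xbp1 KO and 25.7 ± 3.72 CPM in cDC1 WT, both over a whole gene (SD, n = 3 each). Such counts can include transcripts that lack a deleted part, the labels do not give that part, and these values therefore do not check the labels.

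Interferons of type I bind the receptor IFNAR, whose kinases JAK1 and TYK2 start a cascade that ends in the complex ISGF3, of which STAT2 and IRF9 are subunits. ISGF3 binds the interferon-stimulated response element (ISRE) in promoters of antiviral genes, while interferon gamma acts mainly at GAS elements. The products include the IFIT proteins, which bind viral RNA, the OAS enzymes, whose oligoadenylates activate RNase L, the sensors RIG-I (Ddx58), MDA5 (Ifih1), LGP2 (Dhx58) and ZBP1, and GTPases of the IRG and GBP families that act on vacuoles of intracellular microbes. A basal level of many of these transcripts is kept in unstimulated dendritic cells, and the labels name no interferon treatment.

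Promoters are shown for 6 genes that the results turn on, as a 300-base window from 250 bases before to 50 bases after the start, credited to RefSeq on GRCm38.p6. Capitals mark every match to the core of the ISRE, which is GAAA, any 2 bases and GAAA again, on either strand, with overlapping matches joined. Oas1a (chr5:120907476-120907775, minus strand) and Ddx58 (chr4:40239776-40240075, minus strand) had far lower counts in cDC1 than in cDC2, and Trim30a (chr7:104465144-104465443, minus strand, the more upstream of its windows) had higher counts in cDC1. Ifitm3 (chr7:141010695-141010994, minus strand), Bst2 (chr8:71537423-71537722, minus strand) and Epsti1 (chr14:77903989-77904288, plus strand) differed between genotypes in cDC1.
Oas1a: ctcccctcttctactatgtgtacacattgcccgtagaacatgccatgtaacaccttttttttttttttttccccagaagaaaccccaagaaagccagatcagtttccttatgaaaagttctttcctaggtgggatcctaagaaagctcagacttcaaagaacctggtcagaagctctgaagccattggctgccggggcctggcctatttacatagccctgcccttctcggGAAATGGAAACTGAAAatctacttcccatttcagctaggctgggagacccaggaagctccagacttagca
Ddx58: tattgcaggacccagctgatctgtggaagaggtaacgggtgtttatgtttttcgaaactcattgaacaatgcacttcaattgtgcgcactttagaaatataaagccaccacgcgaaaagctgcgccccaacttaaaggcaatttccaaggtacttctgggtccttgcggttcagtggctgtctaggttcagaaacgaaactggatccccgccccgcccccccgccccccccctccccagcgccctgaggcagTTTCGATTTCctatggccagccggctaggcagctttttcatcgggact
Trim30a: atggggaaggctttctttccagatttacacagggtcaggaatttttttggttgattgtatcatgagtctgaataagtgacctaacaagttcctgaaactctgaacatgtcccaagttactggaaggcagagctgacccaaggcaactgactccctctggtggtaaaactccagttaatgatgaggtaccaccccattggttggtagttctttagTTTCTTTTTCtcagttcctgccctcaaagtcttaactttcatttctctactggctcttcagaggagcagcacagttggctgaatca
Ifitm3: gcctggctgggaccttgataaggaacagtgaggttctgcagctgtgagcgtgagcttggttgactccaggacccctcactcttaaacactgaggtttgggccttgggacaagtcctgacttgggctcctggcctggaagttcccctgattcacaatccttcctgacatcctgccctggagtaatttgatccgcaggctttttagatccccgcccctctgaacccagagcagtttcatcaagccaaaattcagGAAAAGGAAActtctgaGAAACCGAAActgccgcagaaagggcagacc
Bst2: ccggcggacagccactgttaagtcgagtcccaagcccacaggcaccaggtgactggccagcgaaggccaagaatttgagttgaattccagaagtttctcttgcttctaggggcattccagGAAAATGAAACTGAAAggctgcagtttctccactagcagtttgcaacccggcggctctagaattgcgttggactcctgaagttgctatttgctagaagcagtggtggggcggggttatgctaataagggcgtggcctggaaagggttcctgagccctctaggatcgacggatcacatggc
Epsti1: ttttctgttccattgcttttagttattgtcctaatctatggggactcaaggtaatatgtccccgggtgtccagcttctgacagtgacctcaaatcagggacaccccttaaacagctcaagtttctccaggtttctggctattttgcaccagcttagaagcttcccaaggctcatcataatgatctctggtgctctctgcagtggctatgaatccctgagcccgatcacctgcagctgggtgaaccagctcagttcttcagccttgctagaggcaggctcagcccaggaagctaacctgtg
In Oas1a the matches began 20 and 14 bases before the start, and in Bst2 130 and 124 bases before it. In Ifitm3 they began just past the start, and Epsti1 had no match in this window. Of the 38 genes, 30 had at least 1 window. The ISRE core was found in 17 of these 30 genes (56.7%), against 3.99% of the 27025 genes in the RefSeq table. A GAS match, TTCNNNGAA, which reads the same on both strands, was in 7 of 30 (23.3%), against 9.55%. Among the genes with a window, the ISRE core was found in 13 of 20 whose counts were lower in WT cDC1 than in WT cDC2, in 1 of 4 that were higher and in 3 of 6 that were not called. These matches describe the letters of the window and are not measured binding.

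Per kilobase of exon, the level of Ifitm3, whose product blocks viral fusion in endosomes, was the highest of the set in both WT subsets, at 121 ± 22.7 CPM per kb in cDC1 and 674 ± 140.5 CPM per kb in cDC2 (SD, n = 3 and 4). On the same per-kilobase scale Epsti1 lay at 89.2 CPM per kb in cDC1 WT and 59.7 in cDC2 WT. Trim30a, a TRIM family ubiquitin ligase, lay at 42.3 CPM per kb in cDC1 WT and 22.6 in cDC2 WT, and Irf9, the DNA-binding subunit of ISGF3, at 32.03 in cDC1 WT and 34.3 in cDC2 WT. Several antiviral effectors were close to the detection limit in cDC1. Oas2 had 0, 0 and 2.19 CPM in the cDC1 WT libraries and 9.12, 7.69, 11.3 and 16.1 CPM in the cDC2 WT libraries. Mx2, a dynamin-like GTPase, was low in both subsets, with 1.195, 0.313 and 1.05 CPM in cDC1 WT and 0, 0.141, 0.825 and 0.649 CPM in cDC2 WT. Its group values overlapped.

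**Figure D1:**
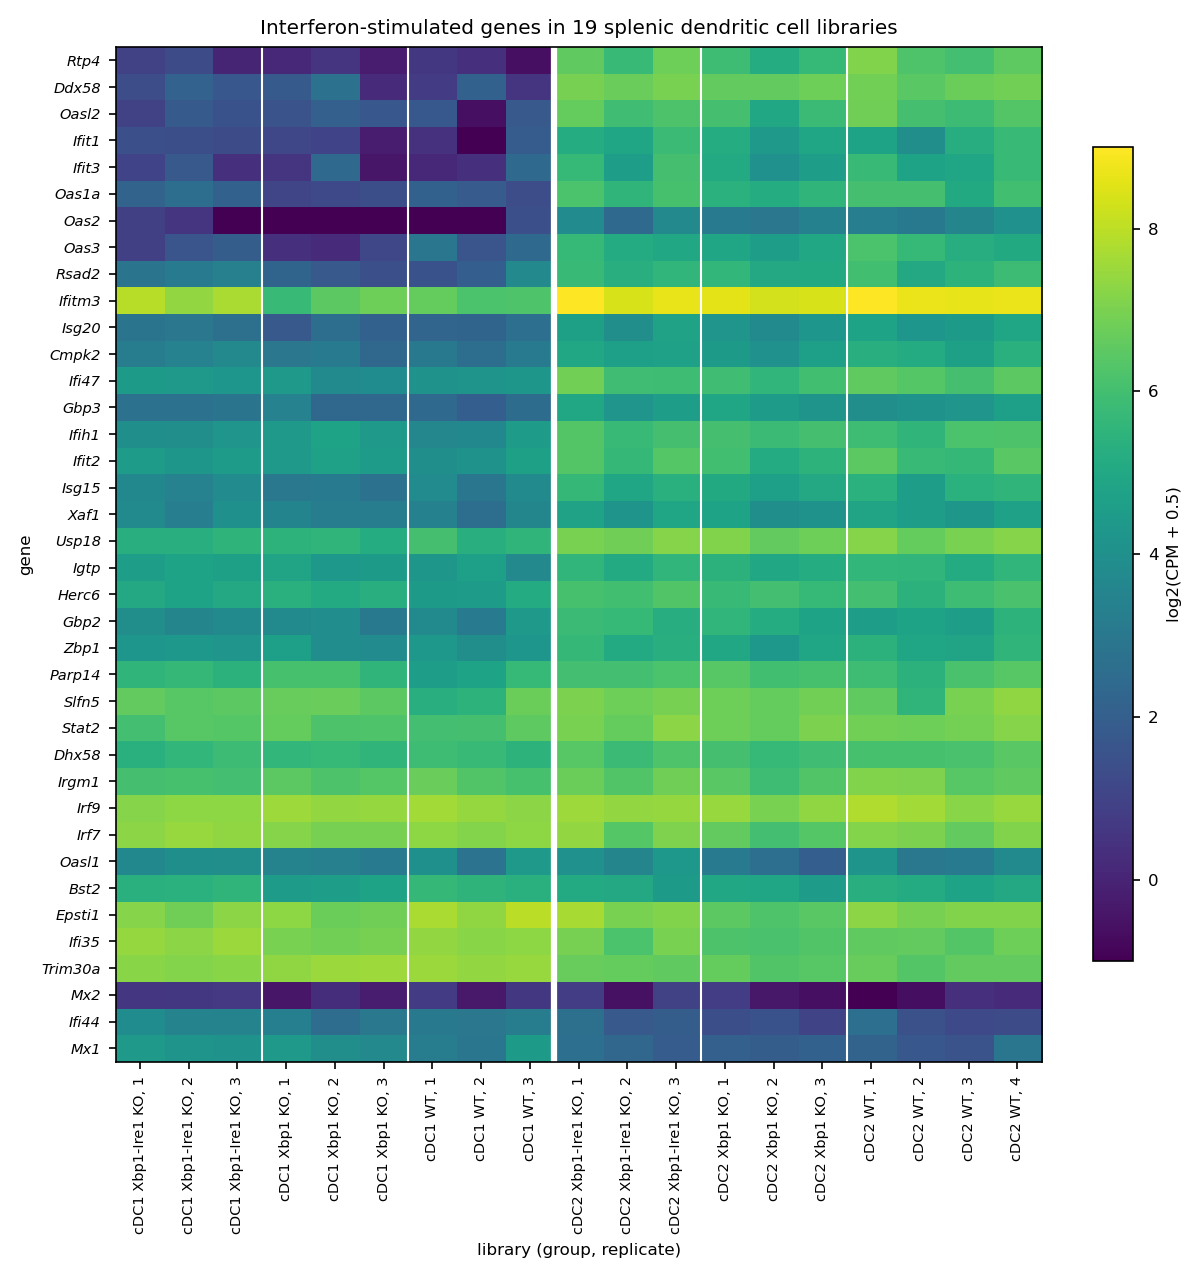
Level of the 38 interferon-stimulated genes in the 19 libraries, as log2 of CPM plus 0.5, with genes ordered by the cDC1 over cDC2 difference in WT cells and libraries grouped by cell type and genotype. Rtp4, Ddx58, Oasl2, Ifit1, Ifit3, Oas1a and Oas3 toward the top are lower in the cDC1 columns than in the cDC2 columns, and Mx1, Ifi44 and Trim30a at the bottom run the other way.

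More of these genes were called between cDC1 and cDC2 than between genotypes. In WT cells 31 of 38 passed the quasi-likelihood test of edgeR, adjusted over 12185 genes by Benjamini-Hochberg (adjusted p under 0.05, here called), 26 lower and 5 higher in cDC1 than in cDC2, where 40.8% of all tested genes were called, 20.7% lower and 20% higher. Log2 fold changes are given ± SE. The median log2 fold change, cDC1 over cDC2, was −1.30 over the 38 genes and −0.04 over all tested genes. The groups did not overlap for 25 genes that were lower and 5 that were higher, against 21.2% and 20.5% of all tested genes. All 3 IFIT genes, all 4 sensors, 4 of the 5 OAS genes, all 3 genes of the ISG15 system and 4 of the 5 IRG and GBP GTPases were lower in cDC1. Among the sensors, the call of Dhx58 was lost in 5 of 15 alternatives.

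Rtp4 had 1.02, 0.782 and 0.162 CPM in cDC1 WT, against 136, 75.1, 64.8 and 90.98 CPM in cDC2 WT (log2 fold change of −7.11 ± 0.47, adjusted p = 2.58e-10). It encodes a receptor transporter protein and showed the widest difference in fold, at 138-fold lower in cDC1. Ddx58 had 1.195, 3.75 and 0.972 CPM in cDC1 WT, against 116, 87.3, 107 and 116 CPM in cDC2 WT (log2 fold change of −5.74 ± 0.45, adjusted p = 2.44e-09). Every cDC1 WT library lay far below every cDC2 WT library for this RIG-I transcript. Ifih1 had 11.8, 12.1 and 22.8 CPM in cDC1 WT, against 58.9, 45.6, 71.1 and 73.9 CPM in cDC2 WT (log2 fold change of −2.0 ± 0.23, adjusted p = 5.58e-07). The MDA5 sensor was therefore lower in cDC1 as well, but by 3.999-fold rather than the 53.3-fold of Ddx58.

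Among the OAS enzymes, Oas1a had 3.76, 3.13 and 2.11 CPM in cDC1 WT, against 66.2, 65.6, 33.2 and 61.5 CPM in cDC2 WT (log2 fold change of −4.24 ± 0.28, adjusted p = 2.6e-10). Oas3 had 6.999, 2.58 and 4.86 CPM in cDC1 WT, against 70.6, 51.2, 36.7 and 33.03 CPM in cDC2 WT (log2 fold change of −3.32 ± 0.37, adjusted p = 3.35e-07). Both were lower in each cDC1 library than in any cDC2 library. Oasl2 had 2.902, 0.156 and 2.997 CPM in cDC1 WT, against 115, 65.9, 57.8 and 79.1 CPM in cDC2 WT (log2 fold change of −5.305 ± 0.49, adjusted p = 2.58e-08). Oasl1, its relative and a translational repressor of Irf7 in mice, was not called (log2 fold change of 0.28 ± 0.35, adjusted p = 0.559), with 15.5, 6.57 and 20.6 CPM in cDC1 WT and 17.6, 7.55, 8.496 and 13.3 CPM in cDC2 WT.

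Lower counts extended to nucleotide and RNA enzymes. Cmpk2 had 7.85, 5.55 and 7.94 CPM in cDC1 WT, against 38.7, 34.8, 25.3 and 40.4 CPM in cDC2 WT (log2 fold change of −2.29 ± 0.24, adjusted p = 1.45e-07), and it encodes a mitochondrial nucleotide kinase. Isg20 had 4.35, 4.14 and 5.83 CPM in cDC1 WT, against 27.7, 18.5, 21.6 and 28.97 CPM in cDC2 WT (log2 fold change of −2.34 ± 0.27, adjusted p = 5e-07), the gene of an RNA exonuclease. Rsad2, the gene of viperin, was lower by 2.97 on the log2 scale (adjusted p = 5.28e-06). Ifi47 had 17.2, 17.6 and 19.4 CPM in cDC1 WT, against 94.7, 81.4, 65.9 and 88.3 CPM in cDC2 WT (log2 fold change of −2.19 ± 0.22, adjusted p = 9.12e-08). Ifi47 is an IRG GTPase, and its 2 groups stood well apart. Ifitm3 had 99.4, 71.2 and 74.6 CPM in cDC1 WT, against 599, 418, 396 and 415 CPM in cDC2 WT (log2 fold change of −2.48 ± 0.23, adjusted p = 3.12e-08), so the gene with the highest level per kilobase in both subsets was also 5.59-fold lower in cDC1. Ifitm3 and several others belong to families of close relatives, so counts of Ifit3, Oas1a, Mx1, Mx2, Ifitm3, Gbp2 and Gbp3 are uncertain where reads could be split. The same holds for genes whose exons overlap another gene on their own strand. These are Igtp (Irgm2), Rtp4 (Gm45338), Ifi47 (Olfr56), Irf9 (Rnf31), Herc6 (Gm45193) and Parp14 (Gm49730).

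The other direction, higher in WT cDC1, held for 5 genes. Trim30a had 182, 166 and 174 CPM in cDC1 WT, against 101, 78.7, 95.2 and 97.1 CPM in cDC2 WT (log2 fold change of 0.903 ± 0.11, adjusted p = 1.01e-06). Ifi35 had 166, 150.5 and 157 CPM in cDC1 WT, against 92.8, 97.05, 79.5 and 109.6 CPM in cDC2 WT (log2 fold change of 0.74 ± 0.15, adjusted p = 0.000473), a gene whose product pairs with NMI. Epsti1 had 211, 163 and 248 CPM in cDC1 WT and 155, 123, 138 and 138 CPM in cDC2 WT (log2 fold change of 0.58 ± 0.18, adjusted p = 0.0132). These 3 did not overlap between the subsets, though the Epsti1 call was lost without cDC1 WT replicate 3 (adjusted p = 0.0827). Mx1, a dynamin-like GTPase that carries a deletion in most laboratory strains, did overlap, with 8.88, 7.11 and 21.6 CPM in cDC1 WT and 4.07, 2.82, 2.47 and 7.14 CPM in cDC2 WT (log2 fold change of 1.604 ± 0.37, adjusted p = 0.00145). Ifi44 had 7.77, 7.27 and 8.67 CPM in cDC1 WT and 5.86, 2.26, 1.81 and 1.95 CPM in cDC2 WT (log2 fold change of 1.41 ± 0.37, adjusted p = 0.00398). These groups did not overlap. The Ifi44 call was lost with the number in the description as a block (1.02, adjusted p = 0.119) and with the fl-fl libraries alone (0.88, adjusted p = 0.143). In WT only the fl-fl numbers occur in both subsets, so this block compares the subsets within the fl-fl libraries and is not a separate check. With the same block the Epsti1 call was also lost (0.42, adjusted p = 0.0689). In bulk RNA, fewer cells of a type and less RNA per cell cannot be told apart. The 7 monocyte markers summed to 368 to 415 CPM in cDC1 WT and 989 to 1239 CPM in cDC2 WT, and the 8 plasmacytoid dendritic cell markers to 72.1 to 89.99 CPM in cDC1 WT and 133.5 to 236 CPM in cDC2 WT, while Siglech, which defines plasmacytoid cells, was at 0.391 to 3.65 CPM in cDC1 WT and 0.812 to 2.47 CPM in cDC2 WT. Of the monocyte markers, Treml4 was higher in cDC1 WT (308 to 339 CPM, against 55.6 to 84.9 CPM in cDC2 WT). Ly6c2 overlapped, and the others were higher in cDC2 WT. Of the plasmacytoid markers, Ccr9 and Pacsin1 were higher in cDC1 WT, Tcf4 and Spib were higher in cDC2 WT, and the others overlapped. The part of monocytes and plasmacytoid cells in the subset difference was not tested.

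Most of this division was also present without Xbp1. In Xbp1 KO cells 28 of 38 genes were called, 22 lower and 6 higher in cDC1, where 39.1% of all tested genes were called, 20.8% lower and 18.4% higher, and the median log2 fold change was −1.06. In Xbp1-Ire1 KO cells 31 were called, 26 lower and 5 higher, where 42.6% of all tested genes were called, 22.1% lower and 20.5% higher, with a median of −1.15. In all 3 genotypes 22 genes were lower and 4, Mx1, Ifi44, Ifi35 and Trim30a, were higher in cDC1. Of the 4 sensors, 2 were called lower in Xbp1 KO, against all 4 in WT and in Xbp1-Ire1 KO. Mx2, Oasl1, Irf9 and Slfn5 were called in no genotype.

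Rtp4 had 1.44, 1.93 and 0.537 CPM in cDC1 Xbp1-Ire1 KO and 93.04, 53.3 and 111 CPM in cDC2 Xbp1-Ire1 KO (log2 fold change of −6.03 ± 0.44, adjusted p = 8.72e-10). In Xbp1 KO it had 0.594, 0.908 and 0.343 CPM in cDC1 and 59.4, 36.4 and 52.1 CPM in cDC2 (log2 fold change of −6.31 ± 0.48, adjusted p = 1.93e-09). No cDC1 library of any genotype reached 2 CPM for this gene. Ddx58 differed by −5.28 ± 0.43 in Xbp1-Ire1 KO (adjusted p = 5.12e-09) and by −4.96 ± 0.43 in Xbp1 KO (adjusted p = 1.25e-08). Oas2, with no count in the cDC1 Xbp1 KO libraries and 7.86, 7.39 and 10.03 CPM in cDC2 Xbp1 KO, was at least 95.7-fold lower in cDC1, taking a floor of 3 counts over the group. For Ifitm3 the log2 fold change between subsets was −1.01 ± 0.23 in Xbp1-Ire1 KO (adjusted p = 0.00123), −2.03 ± 0.24 in Xbp1 KO (adjusted p = 6.77e-07) and −2.48 ± 0.23 in WT. Bst2, the gene of tetherin, was called in Xbp1-Ire1 KO alone of the 3 (log2 fold change of 0.54 ± 0.18, adjusted p = 0.0215), and just missed the threshold in WT (log2 fold change of 0.42 ± 0.17, adjusted p = 0.0538). The Xbp1-Ire1 KO call was lost without cDC1 replicate 3 (adjusted p = 0.0854) or cDC2 replicate 3 (adjusted p = 0.0973) and with the number in the description as a block (log2 fold change of 0.29, adjusted p = 0.261). That block sets aside both of these libraries, whose numbers have no partner in the other subset. The subset difference of Bst2 was not shown to depend on this genotype (interaction 0.12 ± 0.25, adjusted p = 0.915).

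**Figure D2:**
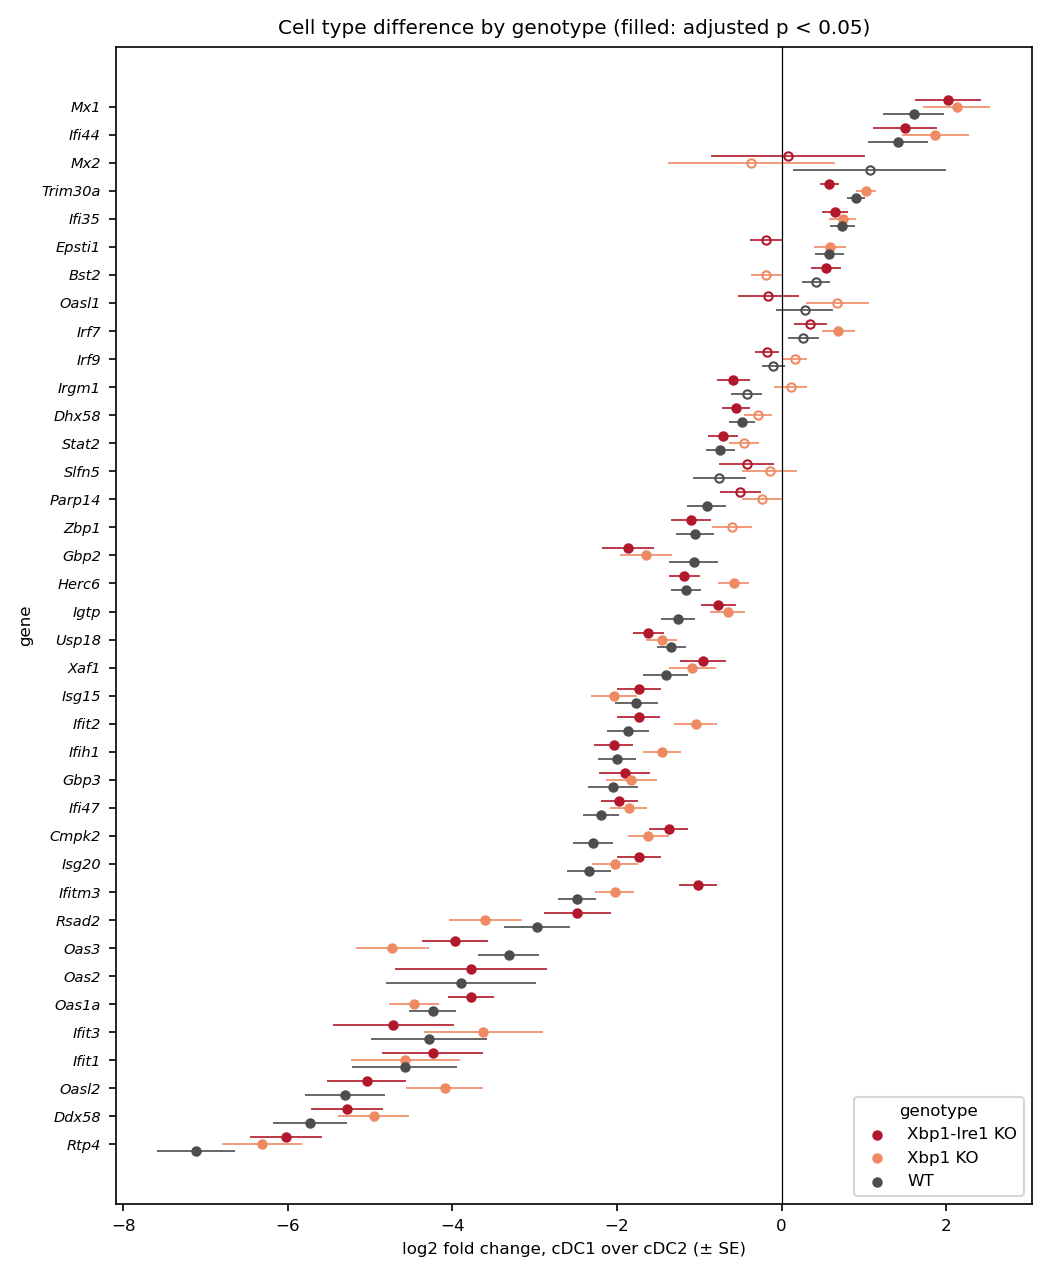
Log2 fold change of each gene, cDC1 over cDC2, with its standard error, in Xbp1-Ire1 KO, Xbp1 KO and WT cells. Filled points passed the adjusted p of 0.05 and open points did not. Oas2 in Xbp1 KO is left out because the cDC1 libraries had no count. Most genes lie left of 0 in all 3 genotypes, and the Ifitm3 point of Xbp1-Ire1 KO cells, at −1.01, lies nearer to 0 than that of WT cells, at −2.48.

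Loss of Xbp1 changed few of these genes in cDC1. Called were 3 of 38, all lower in Xbp1 KO than in WT (7.89% of the set, against 11.2% of all 11353 tested genes, 6.91% lower and 4.28% higher), so the set was not called more often than the background. The median log2 fold change was −0.08 over the 38 genes and −0.02 over all tested genes, also with Oas2 at its bound, and 8 genes had an unadjusted p under 0.05. WT replicate 3 decided this count: without it 9 genes were called, 4 lower (Bst2, Epsti1, Oas3 and Ifi35) and 5 higher (Mx1, Ifih1, Herc6, Parp14 and Slfn5). That was 23.7% of the set, against 25.2% of 11597 tested genes, 13.2% lower and 12.1% higher. Without WT replicate 1 or Xbp1 KO replicate 2 the count was 1, lower. The median was 0.01 without WT replicate 1 or 3. Bst2, the gene of tetherin, which holds budding virions at the cell surface (ENSMUSG00000046718, GRCm38 chromosome 8, 71534255 to 71537456), had 22.6, 23.1 and 27.1 CPM in Xbp1 KO, against 49.7, 45.2 and 39.7 CPM in WT. Every Xbp1 KO library was below every WT library, and the counts fell by 0.90 on the log2 scale (SE 0.15, adjusted p = 0.00224, 3 libraries on each side). The call was lost against the WT-described library alone (fell by 0.71, adjusted p = 0.0849). That single library is then assumed to vary like the other libraries. Of 27 tested neighbours within 500 kb of Bst2, looked up after its values were seen, 3 were called lower and 0 higher in Xbp1 KO. These were Nr2f6, Babam1 and Mvb12a, where 6.91% of all tested genes were lower. Between the cDC1 knockouts 2, Babam1 and Mvb12a, were higher in Xbp1-Ire1 KO and 0 lower, against 7.13% higher. The part of this region in the Bst2 difference was not tested.

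Epsti1 (ENSMUSG00000022014, GRCm38 chromosome 14, 77904239 to 78002657) had 158, 106 and 114 CPM in Xbp1 KO, against 211, 163 and 248 CPM in WT (log2 fold change of −0.72 ± 0.19, adjusted p = 0.0258), without overlap. Oas3 had 0.764, 0.635 and 1.71 CPM in Xbp1 KO, against 6.999, 2.58 and 4.86 CPM in WT (log2 fold change of −2.21 ± 0.59, adjusted p = 0.0301), again without overlap but at low counts. The Oas3 call was lost without WT replicate 1 (adjusted p = 0.149), without Xbp1 KO replicate 1 or 2 (adjusted p = 0.116 each) and against the single WT-described library (−2.21, adjusted p = 0.163). The Epsti1 call was lost without WT replicate 1 (adjusted p = 0.094) or Xbp1 KO replicate 2 (adjusted p = 0.13) or 3 (adjusted p = 0.0846). Within 500 kb of Epsti1, 2 neighbours were tested, Dnajc15 and Akap11, looked up after its values were seen. In cDC1, 1 was called higher and 1 lower in Xbp1 KO against WT, where 11.2% of all tested genes were called. Between the cDC1 knockouts 1 was again called each way, against 12.7%, and in cDC2 0 were called. The part of this region in the Epsti1 difference was not tested. Just over the threshold were Ifi35 (log2 fold change of −0.37 ± 0.11, adjusted p = 0.0509) and Parp14, an ADP-ribosyltransferase, whose value ran the other way (log2 fold change of 0.82 ± 0.25, adjusted p = 0.0522). Oas2 had no count in the 3 Xbp1 KO libraries and 27 counts over the WT libraries, all of them in replicate 3, so it was at least 8.42-fold lower by a floor of 3 counts over the group but did not pass the test (adjusted p = 0.161).

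With Ire1 lost as well, a single gene was called against WT (2.63% of the set, against 7.75% of all tested genes, 3.04% higher and 4.71% lower). Ifitm3 (ENSMUSG00000025492, GRCm38 chromosome 7, 141009586 to 141010770) had 242, 164 and 212 CPM in cDC1 Xbp1-Ire1 KO, against 99.4, 71.2 and 74.6 CPM in cDC1 WT. All 3 knockout libraries were above all WT libraries, and Ifitm3 rose 2.53-fold (log2 fold change of 1.34 ± 0.23, adjusted p = 0.00345, with 3 libraries on each side). It kept its call in each of 13 alternatives, with log2 fold changes of 1.202 to 1.498. Among them, the fl-fl libraries alone and the fit without WT replicate 3 are the same fit, counted under both names. The nearest miss was Epsti1 (log2 fold change of −0.58 ± 0.19, adjusted p = 0.0758), with 147, 114 and 154 CPM in Xbp1-Ire1 KO and 211, 163 and 248 CPM in WT, and 4 genes had an unadjusted p under 0.05. Without WT replicate 3, 6 genes were called, 5 higher and 1 lower (15.8% of the set, against 17% of all tested genes then), and without WT replicate 2 the count was 2. The median over the 38 genes was 0.16, against 0.01 over all tested genes.

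Markers of other cells moved with the same libraries. The 6 neutrophil markers found in the tables summed to 20.5, 72.4 and 23.2 CPM in the cDC1 Xbp1-Ire1 KO libraries, with 0, 12.3 and 1.63 CPM in the Xbp1 KO libraries and 0.854, 8.29 and 4.78 CPM in the WT libraries. The 5 erythroid markers summed to 9.902, 39.9 and 16.4 CPM in Xbp1-Ire1 KO, 2.04, 3.45 and 3.86 CPM in the Xbp1 KO libraries and 4.35, 2.66 and 10.3 CPM in the WT libraries. The plasmacytoid markers summed to 169, 124 and 113 CPM in Xbp1-Ire1 KO, 80.02, 114 and 57.2 CPM in Xbp1 KO, against 74.3, 72.1 and 89.99 CPM in WT, with Siglech at 0.134 to 1.74 CPM in Xbp1-Ire1 KO, 0.943 to 10.98 CPM in Xbp1 KO and 0.391 to 3.65 CPM in WT. Cox6a2 made up most of that sum in Xbp1-Ire1 KO, at 68.8 to 114 CPM, against 5.43 to 10.7 CPM in Xbp1 KO and 0.313 to 0.648 CPM in WT. Of the 8 plasmacytoid markers 4 had log2 fold changes above 0 and 4 below 0 in Xbp1-Ire1 KO against WT, with a median of −0.48. Cox6a2 was called higher, and Ccr9 and Pacsin1 were called lower. The monocyte markers summed to 222, 361 and 391 CPM in Xbp1-Ire1 KO, 475, 561 and 433 CPM in the Xbp1 KO libraries and 368, 411 and 415 CPM in the WT libraries. Ifitm3 was highest in the library with the lowest neutrophil sum of the 3, and without replicate 2, which held the highest, its log2 fold change against WT was 1.48 (adjusted p = 0.00547). The libraries then left, at 20.5 and 23.2 CPM, still lay above every WT and Xbp1 KO library in the neutrophil sum. Leaving out replicate 2 therefore cannot separate the genotype from such cells. At most 1 of the 6 neutrophil markers was at 0 in a library of Xbp1-Ire1 KO, up to 6 in Xbp1 KO and up to 3 in WT. The part of such cells in the Ifitm3 result was not tested. Within 500 kb of Ifitm3, 31 neighbours were tested, looked up after the Ifitm3 values were seen. In Xbp1-Ire1 KO against WT 1 of them was called higher, its relative Ifitm6, and 1 lower, Pnpla2. Of all tested genes 3.04% were higher and 4.71% lower.

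Between the knockouts, which differ by the added loss of Ire1, 3 of 38 genes were called, all higher in Xbp1-Ire1 KO (7.89% of the set, against 12.7% of all tested genes, 7.13% higher and 5.52% lower). This comparison shares its libraries with those against WT. Ifitm3 had 53.8, 88.8 and 112 CPM in Xbp1 KO, so it was 2.46-fold higher in Xbp1-Ire1 KO (log2 fold change of 1.297 ± 0.23, adjusted p = 0.00319). Bst2 had 39.7, 41.3 and 46.6 CPM in Xbp1-Ire1 KO, against the 22.6, 23.1 and 27.1 CPM of Xbp1 KO (log2 fold change of 0.83 ± 0.15, adjusted p = 0.00359), with no overlap, and did not differ detectably between Xbp1-Ire1 KO and WT (log2 fold change of −0.07 ± 0.15, adjusted p = 0.831). Ifi35 (ENSMUSG00000010358, GRCm38 chromosome 11, 101448407 to 101458698) had 170.1, 154 and 179 CPM in Xbp1-Ire1 KO, against 127, 118 and 124 CPM in Xbp1 KO (log2 fold change of 0.46 ± 0.11, adjusted p = 0.0184), and the call was lost without Xbp1-Ire1 KO replicate 1 or 3 or Xbp1 KO replicate 1 or 2 (adjusted p = 0.0659, 0.103, 0.0766 and 0.102). Ifi35 lies on the same chromosome as Ern1 (106394650 to 106487852) and Xbp1 (5520659 to 5525893). So do Ifi47, Dhx58, Xaf1, Igtp, Irgm1 and Slfn5, which were not called between the knockouts. Of these Dhx58 starts at 100694884, close to Ifi35. The others lie farther from Ern1, with starts from 48861968 (Irgm1) to 82951349 (Slfn5). The part of the distance to Ern1 was not tested.

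Just over the threshold between the knockouts were Oas1a, with 4.05, 5.59 and 3.76 CPM in Xbp1-Ire1 KO and 1.61, 1.81 and 2.14 CPM in Xbp1 KO (log2 fold change of 1.28 ± 0.43, adjusted p = 0.0676), and Irf7, the master factor of interferon production, with 153, 173 and 162 CPM in Xbp1-Ire1 KO and 145, 123 and 124 CPM in Xbp1 KO (log2 fold change of 0.34 ± 0.12, adjusted p = 0.082). In both, every Xbp1-Ire1 KO library was above every Xbp1 KO library. Oas2, with 31 counts over the Xbp1-Ire1 KO libraries and 0 over Xbp1 KO, was at least 8.35-fold higher but did not pass the test (adjusted p = 0.154). The groups did not overlap for 13 genes that were higher and 5 that were lower, against 17.3% and 19.3% of all tested genes, and 11 had an unadjusted p under 0.05. The median log2 fold change was 0.19, against 0.02 over all tested genes. By group mean, 5 of the 38 genes were lowest in Xbp1-Ire1 KO, 20 in Xbp1 KO and 13 in WT, against 32%, 35.5% and 32.5% of all tested genes in that order.

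**Figure D3:**
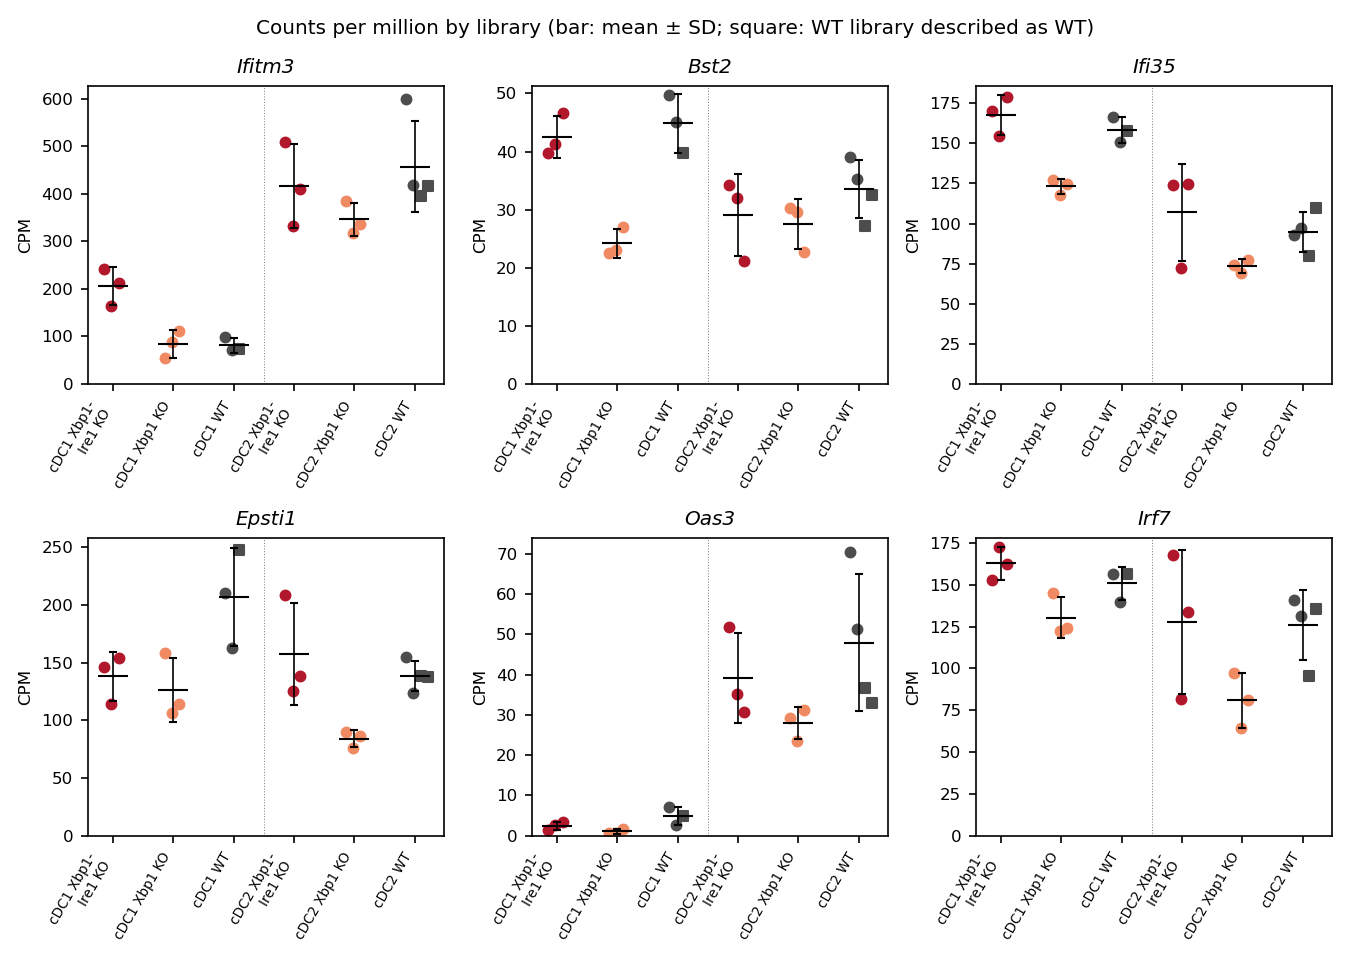
CPM of Ifitm3, Bst2, Ifi35, Epsti1, Oas3 and Irf7 in each library, in Xbp1-Ire1 KO, Xbp1 KO and WT of cDC1 and then of cDC2, with the mean and SD of each group. Circles are knockout and fl-fl WT libraries and squares are libraries described as WT. The cDC1 Xbp1-Ire1 KO libraries stand above the others of that subset for Ifitm3, and the cDC1 Xbp1 KO libraries stand below them for Bst2 and Ifi35.

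In cDC2 no gene of the set was called in any genotype comparison, and few genes were called at all: 0.103% of 11646 tested genes in Xbp1 KO against WT, 0.0258% in Xbp1-Ire1 KO against WT and 0.0343% between the knockouts. In edgeR's test 13, 1 and 9 of the 38 genes had an unadjusted p under 0.05 in that order, and the DESeq2 Wald test called 1 (Epsti1), 0 and 1 (Epsti1). In Xbp1 KO against WT 33 of 38 log2 fold changes were below 0, with a median of −0.36, against −0.02 over all tested genes, and the groups did not overlap for 8 genes that were lower and 0 that were higher, against 5.15% and 4.62% of all tested genes. Between the knockouts 37 of 38 were above 0, with a median of 0.39, against 0.00 over all tested genes, and the groups did not overlap for 4 genes that were higher and 0 that were lower, against 8.91% and 7.08%. In Xbp1-Ire1 KO against WT the median was 0.03 and 23 of 38 were above 0. Xbp1 KO against WT and the comparison of the knockouts share the Xbp1 KO libraries, and 32 of 38 genes had their lowest group mean there, against 35.3% of all tested genes.

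Macrophage markers varied among the same libraries. The 7 red pulp macrophage markers summed to 487, 827 and 351 CPM in cDC2 Xbp1-Ire1 KO, 1501, 795 and 152 CPM in the cDC2 Xbp1 KO libraries and 277, 376, 176 and 575 CPM in the cDC2 WT libraries. None of the 7 was at 0 in a cDC2 library. In Xbp1 KO against WT all 7 were above 0, with a median log2 fold change of 1.10 and 0 called by edgeR, 2 of them at an unadjusted p under 0.05. The Xbp1 KO sums spanned those of WT. In Xbp1-Ire1 KO against Xbp1 KO all 7 were below 0, with a median of −0.504 and 0 called by edgeR, 0 of them at an unadjusted p under 0.05. The 7 monocyte markers summed to 1150, 1065 and 875 CPM in cDC2 Xbp1-Ire1 KO, 1523, 1399 and 1136 CPM in the cDC2 Xbp1 KO libraries and 1049, 1239, 989 and 991 CPM in the cDC2 WT libraries, with 5 of 7 above 0 and a median of 0.14 in Xbp1 KO against WT. The part of such cells in the cDC2 values was not tested.

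In Xbp1 KO against WT and between the knockouts in cDC2, Epsti1 had the smallest p of the set, with 208, 126 and 138 CPM in cDC2 Xbp1-Ire1 KO, 89.5, 75.6 and 86.8 CPM in cDC2 Xbp1 KO and 155, 123, 138 and 138 CPM in cDC2 WT. Each Xbp1 KO library lay below each library of the other genotypes, with a log2 fold change of −0.74 ± 0.17 against WT (adjusted p = 0.27), and Xbp1-Ire1 KO differed from Xbp1 KO by 0.91 ± 0.18 (adjusted p = 0.248). Oasl1 had 16.3, 11.4 and 19.9 CPM in Xbp1-Ire1 KO, 8.27, 5.86 and 3.51 CPM in Xbp1 KO, against 17.6, 7.55, 8.496 and 13.3 CPM in WT, with a difference between the knockouts of 1.42 ± 0.37 (adjusted p = 0.474). Cmpk2 had 31.8, 24.5 and 25.9 CPM in Xbp1-Ire1 KO, 21.4, 16.3 and 24.8 CPM in Xbp1 KO, against 38.7, 34.8, 25.3 and 40.4 CPM in WT (Xbp1 KO against WT, log2 fold change of −0.76 ± 0.199, adjusted p = 0.404). None of these differences passed over all genes. Against the fl-fl WT libraries alone, 6 genes were called in Xbp1 KO, namely Oas1a, Oas3, Rtp4, Cmpk2, Irgm1 and Epsti1, all lower (15.8% of the set). With those libraries 6.21% of 11915 tested genes were called, 2.74% lower and 3.47% higher. Against the WT-described libraries alone 0 genes of the set were called in Xbp1 KO, and 0.0508% of 11812 tested genes. The calls in cDC2 therefore depended on the kind of WT library.

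**Figure D4:**
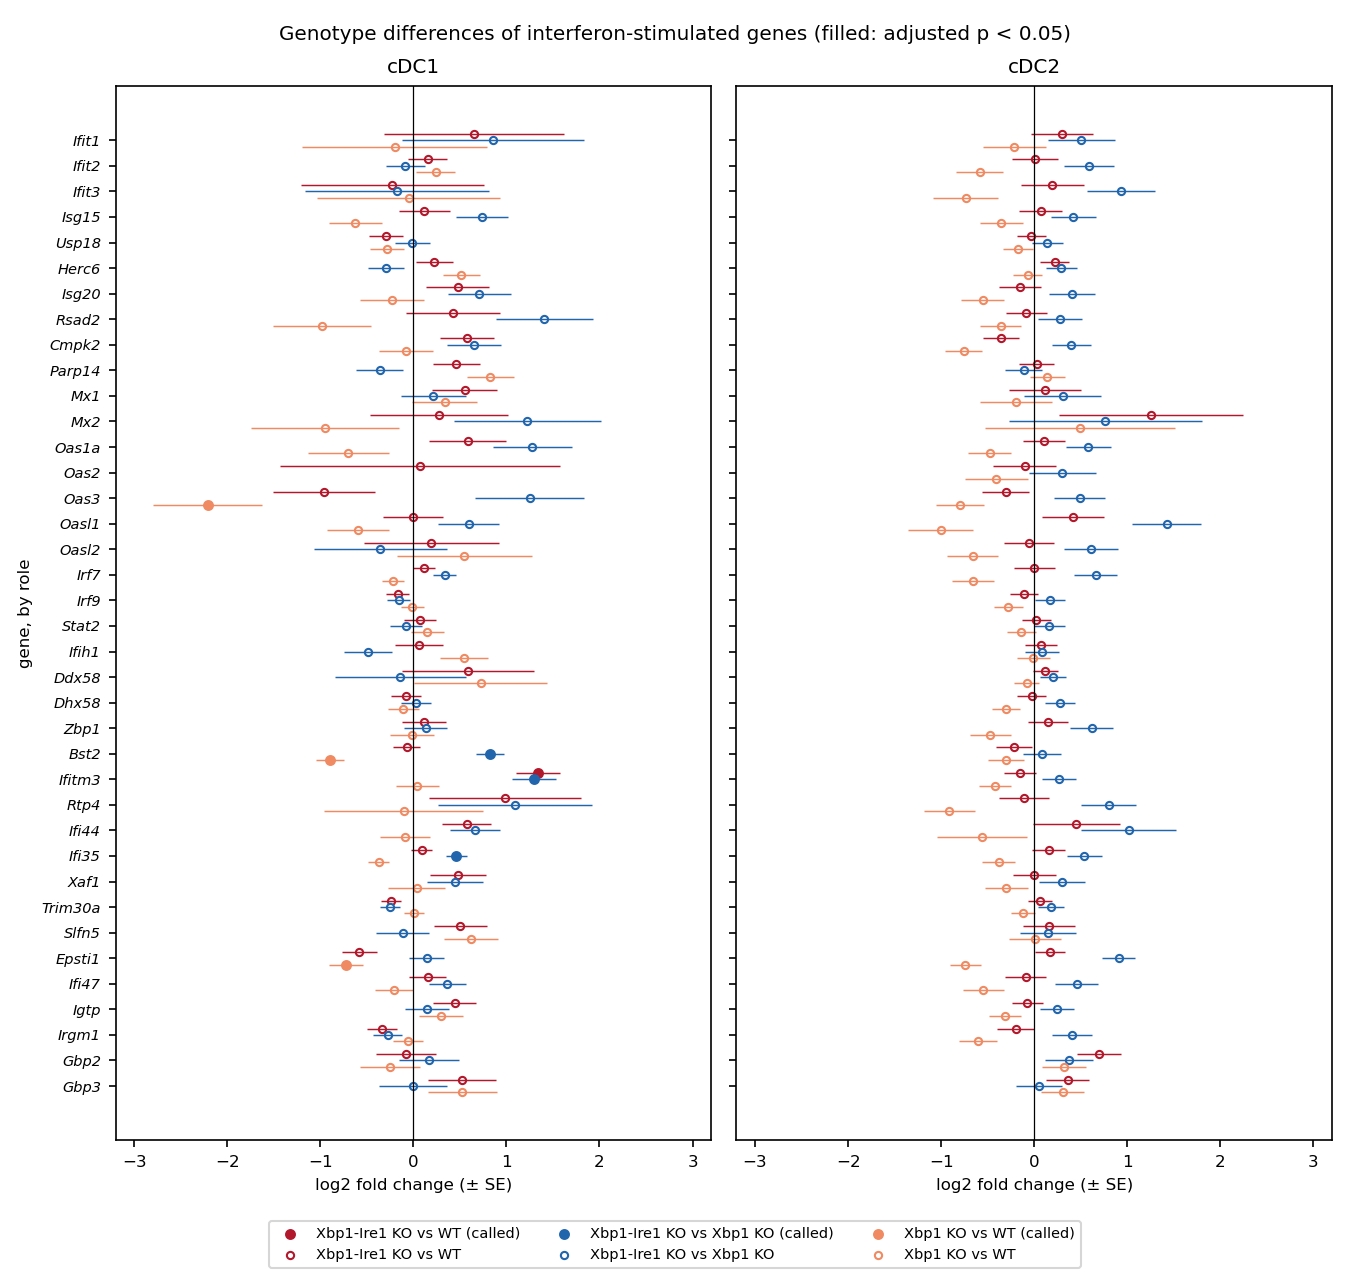
Log2 fold change with its standard error for each gene, ordered by role, in cDC1 and in cDC2, for Xbp1-Ire1 KO against WT, Xbp1-Ire1 KO against Xbp1 KO and Xbp1 KO against WT. Filled points passed the adjusted p of 0.05, and Oas2 in cDC1 is left out where Xbp1 KO had no count. In cDC2 no point is filled, and 37 of 38 values of Xbp1-Ire1 KO against Xbp1 KO lie right of 0.

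Whether a genotype acted differently in the subsets was tested as an interaction over all 19 libraries, as the cDC1 difference from WT minus the cDC2 difference. For Xbp1-Ire1 KO 1 of 38 genes was called, against 2.23% of 12185 tested genes. Ifitm3 averaged 206 ± 39.1 CPM in cDC1 Xbp1-Ire1 KO and 81.8 ± 15.4 CPM in cDC1 WT, but 416 ± 88.4 CPM in cDC2 Xbp1-Ire1 KO and 457 ± 95.2 CPM in cDC2 WT (interaction 1.47 ± 0.31 SE on the log2 scale, adjusted p = 0.0127). With the WT-described libraries alone as WT, it was 1.44 (adjusted p = 0.0875), and without cDC1 WT replicate 3 Rsad2 was called as well. For Xbp1 KO 0 genes were called by edgeR, against 2.17% of all tested genes, with 5 at an unadjusted p under 0.05, and without cDC1 WT replicate 3 Parp14 was called. The smallest p values there were those of Oas3 (−1.42 ± 0.56, adjusted p = 0.261) and Bst2 (−0.61 ± 0.25, adjusted p = 0.293), so the Bst2 difference of cDC1 was not shown to be particular to that subset.

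The genes varied among replicates of a group, and differently in the subsets. In cDC1 the largest within-group SDs of log2(CPM + 0.5) were those of Ifit3 (1.18), Oas2 (0.996), Ifit1 (0.949), Ddx58 (0.902) and Oasl2 (0.852), all low there, and in cDC2 those of Mx2 (0.743), Ifit3 (0.598), Ifit1 (0.5895), Ifi44 (0.528) and Oas2 (0.516). Ifit3 had 1.53, 2.95 and 0.805 CPM in cDC1 Xbp1-Ire1 KO, 0.933, 4.901 and 0.257 CPM in cDC1 Xbp1 KO and 0.598, 0.782 and 4.86 CPM in cDC1 WT. These values overlapped across all 3 genotypes. In cDC2 Ifit3 had 52.1, 24.1 and 66.02 CPM in Xbp1-Ire1 KO, 34.5, 16.4 and 23.5 CPM in Xbp1 KO, against 54.9, 27.7, 28.9 and 52.2 CPM in WT, and Ifit1 had 36.3, 29.9 and 55.6 CPM in Xbp1-Ire1 KO, 35.7, 20.1 and 29.8 CPM in Xbp1 KO, against 27.3, 15.03, 36.6 and 52.4 CPM in WT. Both overlapped across the genotypes.

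Summed up per library, the median deviation of the 38 genes from their cell type mean, on the log2 scale, was 0.121, 0.194 and 0.171 in cDC1 Xbp1-Ire1 KO, 0.0284, −0.0316 and −0.275 in cDC1 Xbp1 KO and 0.00121, −0.272 and 0.191 in cDC1 WT. It was 0.348, −0.185 and 0.201 in cDC2 Xbp1-Ire1 KO, −0.06805, −0.412 and −0.212 in cDC2 Xbp1 KO and 0.314, −0.175, −0.114 and 0.276 in cDC2 WT. The groups overlapped in both subsets, except that every cDC1 Xbp1-Ire1 KO library lay above every cDC1 Xbp1 KO library, and cDC2 Xbp1-Ire1 KO replicate 2 lay among the cDC2 Xbp1 KO libraries. In cDC1 the WT-described library was above the fl-fl mean for 27 of 38 genes, with a median difference of 0.37 on the log2 scale and 8 genes above 1, among them Oas2, Ifit1, Ifit3, Rsad2 and Mx1. In cDC2 19 were above and 19 below, with a median of 0.01. Rsad2, for example, had 2.39, 3.52 and 12.6 CPM in the cDC1 WT libraries, the last of these being the WT-described library. In cDC1 this difference of description is also that of a single library.

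**Figure D5:**
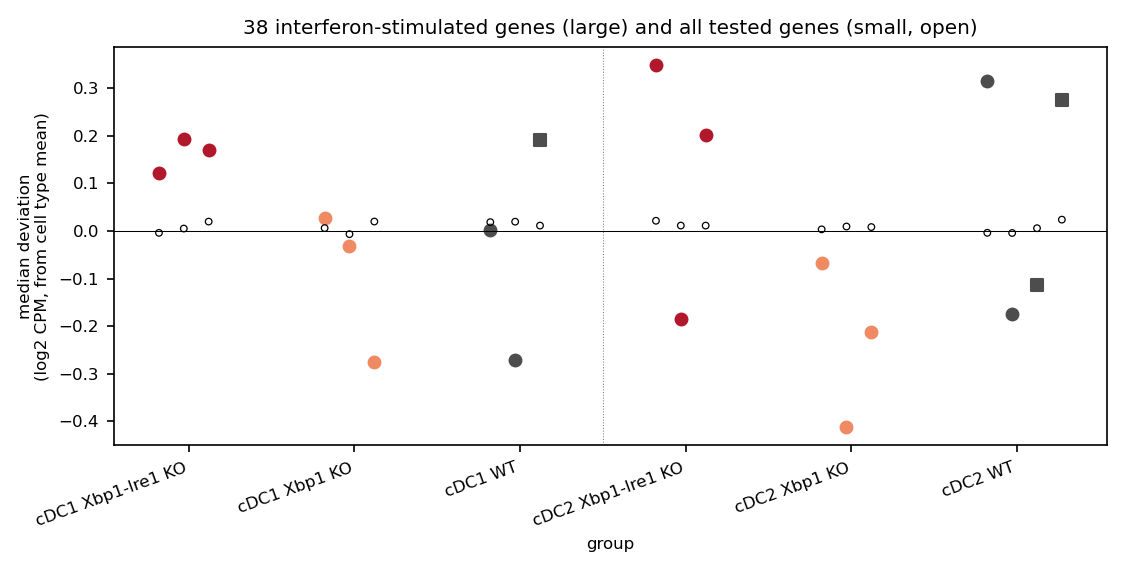
Median deviation of the 38 genes from their mean over all libraries of the cell type, in log2 CPM, for each library (large points, squares for libraries described as WT) and the same median over all tested genes (small open points). The cDC2 Xbp1 KO libraries lie at −0.412 to −0.0681, and the 4 cDC2 WT libraries spread from −0.175 to 0.314, while the medians of all tested genes stay close to 0.

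Other genes of the pathway were examined in 4 lists. They were chosen with earlier results of these data known, so their called shares are no independent check of the set. The alternatives were run for the 38 genes alone. No call on these lists was therefore checked with a library left out or with either kind of WT library alone. Of 10 interferon genes in the tables, 8 had no count in any library, and Ifng, with at most 16 counts in a library, and Ifnk, with at most 4, did not pass the filter, so no ligand could be tested. Of 22 genes of receptors and signalling, 7 were higher and 8 lower in WT cDC1 than in WT cDC2 (68.2%, against 40.8% of all tested genes, 20% higher and 20.7% lower). Irf8, a lineage factor of cDC1 that is also a marker here, averaged 4092 ± 213 CPM in cDC1 WT and 145 ± 25.1 CPM in cDC2 WT. The kinase gene Tyk2 was higher in cDC1 by 0.99 ± 0.14 (adjusted p = 5.1e-06), Irf5 was higher (0.81 ± 0.097, adjusted p = 9.21e-07), and Ptpn6 and Socs3, a phosphatase and a feedback inhibitor, were lower (−2.16 ± 0.15 and −1.96 ± 0.24). The same list had 0 called in cDC1 Xbp1 KO against WT by edgeR, against 11.2% of all tested genes. There 3 had an unadjusted p under 0.05. In cDC1 Xbp1-Ire1 KO against WT 0 were higher, against 3.04% of all tested genes, and 3 were lower (13.6%, against 4.71%), Irf1 (log2 fold change of −1.07 ± 0.22, adjusted p = 0.00883), Pias1 (log2 fold change of −0.61 ± 0.13, adjusted p = 0.00914) and Stat3 (log2 fold change of −0.54 ± 0.14, adjusted p = 0.0285), and against Xbp1 KO 0 were higher, against 7.13%, and 3 were lower (13.6%, against 5.52%), Stat3, Pias1 and Irf2.

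Of 14 nucleic acid sensing genes tested between the subsets, 2 were higher and 2 lower in WT cDC1 (28.6%, against 40.8% of all tested genes). Tlr3 averaged 550.1 ± 38.5 CPM in cDC1 WT and 17.5 ± 9.52 CPM in cDC2 WT (log2 fold change of 4.97 ± 0.37, adjusted p = 1.4e-09), the receptor of double-stranded RNA and a marker of cDC1. Tlr7 averaged 1.39 ± 0.693 CPM in cDC1 WT and 110.3 ± 13.2 CPM in cDC2 WT (log2 fold change of −6.28 ± 0.46, adjusted p = 1.02e-09), the receptor of single-stranded RNA. In cDC1 Xbp1 KO against WT 1 of 13 was higher and 2 were lower (23.1%, against 11.2% of all tested genes). Tmem173, the gene of STING, averaged 12 ± 3.23 CPM in Xbp1 KO and 44.5 ± 9.35 CPM in WT (log2 fold change of −1.902 ± 0.22, adjusted p = 7.96e-05), and 42.9 ± 3.79 CPM in Xbp1-Ire1 KO, higher than in Xbp1 KO (log2 fold change of 1.85 ± 0.22, adjusted p = 8.81e-05). The difference between Xbp1 KO and WT in cDC1 minus that in cDC2 was −1.66 ± 0.296 on the log2 scale (adjusted p = 0.002). Tlr3 was higher in Xbp1 KO than in WT (log2 fold change of 0.71 ± 0.12, adjusted p = 0.00191), and Ticam1, its adaptor, was lower (log2 fold change of −0.83 ± 0.23, adjusted p = 0.0387). In Xbp1-Ire1 KO against WT 0 of 13 were higher and 2, Adar and Ticam1, were lower (15.4%, against 7.75% of all tested genes), and against Xbp1 KO 1, Tmem173, was higher and 3, Tlr3, Adar and Tbk1, were lower (30.8%, against 12.7%).

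Of 54 further interferon targets, 52 were tested between the subsets, and 9 were higher and 28 lower in WT cDC1 (71.2%, against 40.8% of all tested genes, 20% higher and 20.7% lower). Ms4a4c and Ifitm1 were lower (−5.95 ± 0.24 and −5.64 ± 0.33), and Ifi205 and the chemokine gene Cxcl9 were higher (5.25 ± 0.204 and 3.88 ± 0.23). In cDC1 Xbp1 KO against WT 7 of 46 were lower and 0 were higher (15.2%, against 11.2% of all tested genes, 6.91% lower and 4.28% higher). Lgals3bp averaged 29.1 ± 4.83 CPM in Xbp1 KO and 107 ± 21.8 CPM in WT (log2 fold change of −1.89 ± 0.18, adjusted p = 1.66e-05), a secreted glycoprotein, and Ifi30 averaged 131 ± 9.73 CPM in Xbp1 KO and 248 ± 62.7 CPM in WT (log2 fold change of −0.93 ± 0.17, adjusted p = 0.00349), a lysosomal thiol reductase. Ifi27 and Ifi27l2a were lower by 0.93 and 0.97 on the log2 scale (adjusted p = 0.0197 and 0.0398). Between the knockouts 5 were higher in Xbp1-Ire1 KO, among them Lgals3bp (log2 fold change of 1.696 ± 0.18, adjusted p = 3.42e-05), Gbp8 (log2 fold change of 1.798 ± 0.25, adjusted p = 0.000501), Ifi27l2a and Ifi27, and 2 were lower (15.2%, against 12.7% of all tested genes, 7.13% higher and 5.52% lower). In Xbp1-Ire1 KO against WT 2 were higher, Gbp8 (log2 fold change of 2.54 ± 0.26, adjusted p = 6.11e-05) and Ifi204, and 2 were lower, Gbp4 and Ifi30 (8.7% in all, against 7.75% of all tested genes). Exons of Gbp4 and Gbp8 overlap each other and those of Gbp9 on the same strand. Counts of Gbp4 and Gbp8 are therefore uncertain where reads could be split, and their opposite calls may not be separate results. In cDC2 none of the 3 lists that could be tested had a called gene in a genotype comparison by edgeR. Of the further targets 10, 5 and 7 had an unadjusted p under 0.05 in Xbp1 KO against WT, Xbp1-Ire1 KO against WT and between the knockouts.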

How the data were processed

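Messenger RNA of sorted splenic cDC1 and cDC2 was measured by bulk RNA sequencing, from 5000 to 50000 sorted cells per library per the labels. The values used are raw counts per gene symbol, deposited by the authors as 1 table for each cell type. FastQC 0.11.4, Trimmomatic 0.35, TopHat2 2.1.0, SAMtools 0.1.19 and the mm10 build are named in the submitters' processing notes, while the sources used here give no counting program, annotation or strand setting. Authors' normalized tables were not used.

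Libraries were grouped by genotype and cell type from the labels. Genes were kept by filterByExpr (minimum count 10, minimum total 15), scaled by TMM and tested with the quasi-likelihood F test of edgeR 4.0.16 in R 4.3.3, and p-values were adjusted by Benjamini-Hochberg over every gene tested, with 0.05 as threshold. The 3 genotypes of a cell type shared a fit, and all 19 libraries shared the fit behind cell type comparisons and interactions. Standard errors were taken as the fitted log2 value over the root of its F statistic. The steps were tested on simulated data. The tables of both cell types were joined by symbol as raw counts. Replicates differed beyond sampling noise (chi-square per gene 9.17 to 75.0). Coordinates, gene IDs and exon lengths are from GENCODE M21 on GRCm38.

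In the titles, same-numbered WT cDC1 and cDC2 libraries deviated together (r = 0.179, 0.338 and 0.276), all over 0.1, the rule used for pairing. Libraries of different number but the same kind of description correlated as much (r = 0.225 for cDC1 replicate 1 with cDC2 replicate 2 and 0.343 for cDC1 replicate 3 with cDC2 replicate 4), so a shared number cannot be told apart from a shared kind of description, and in the descriptions the third pair has different numbers. In no other comparison did all pairs pass 0.1. Genes with values in every library were at most the 10 called with the smallest adjusted p per comparison, the 3 highest and 3 lowest in each WT subset, the most variable and those just over the threshold. Of the other pathway lists, at most the 5 called with the smallest adjusted p were named. The genes and lists were chosen with earlier results of these data known. Alternatives were DESeq2 1.42.0, its size factors, other filters, a replicate block, each library left out, and either kind of WT library alone.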

Additional observations from a re-analysis of the deposited data

Results flagged for a closer look

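In the only group of 4 libraries, cDC2 WT, 5 of the 38 genes had a library far from the others by Dixon's ratio of the end gap to the range, which flags about 1 group in 20 by chance. Ifitm3 was high in replicate 1 (599, 418, 396 and 415 CPM, ratio 0.889). Ifi44 was high in the same library (5.86, 2.26, 1.82 and 1.95 CPM, ratio 0.890). Oas1a was low in replicate 3 (66.3, 65.6, 33.2 and 61.5 CPM, ratio 0.857), as was Igtp (49.2, 47.4, 34.9 and 47.4 CPM, ratio 0.877). Dhx58 was high in replicate 4 (67.2, 67.8, 69.4 and 85.6 CPM, ratio 0.880).

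Ifitm3 was also the 1 gene of the set whose difference between Xbp1-Ire1 KO and WT passed the test of an interaction with cell type, at 1.47 on the log2 scale (adjusted p = 0.0127, edgeR). With the WT-described libraries alone as WT it did not pass (1.44, adjusted p = 0.0875), and without cDC1 WT replicate 3 Rsad2 passed as well.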

How the results depend on the processing

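Of 1277 alternative values of 98 gene results, 1226 kept their direction and side of the threshold, 51 kept the direction and lost the call, and 0 reversed. In cDC1 Xbp1 KO against WT, 3 called genes became 5 with the DESeq2 Wald test, 9 with the fl-fl WT libraries alone and 1 to 9 with a library left out. For the cDC1 knockouts against WT, the fl-fl libraries alone are the fit without WT replicate 3, counted under both names. In cDC1 Xbp1-Ire1 KO against WT, 1 became 2 with the DESeq2 Wald test, no filter, the replicate block by title number or the WT-described library alone, 6 with the fl-fl libraries alone and 1 to 6 with a library left out. Between the knockouts in cDC1, 3 became 5 with the DESeq2 Wald test and 2 to 3 with a library left out. In cDC2, 0 became 1 with the DESeq2 Wald test in Xbp1 KO against WT and between the knockouts, and 6 with the fl-fl libraries alone in Xbp1 KO against WT. The interaction count for Xbp1 KO was 0 to 1 with a library left out, and that for Xbp1-Ire1 KO was 0 with the WT-described libraries alone and 1 to 2 with a library left out. Cell type counts stayed within 1.5 times, with a library left out, at 28 to 31 (Xbp1-Ire1 KO), 26 to 29 (Xbp1 KO) and 31 to 32 (WT). The cause of these changes was not tested. With the replicate block by title number on WT cDC1 against cDC2, 31 genes were called and, of the calls without the block, that of Dhx58 was lost (−0.39, adjusted p = 0.0673). With the block by the number in the description, 30 were called and those of Dhx58 (−0.26, adjusted p = 0.339), Ifi44 (1.02, adjusted p = 0.119) and Epsti1 (0.42, adjusted p = 0.0689) were lost, while 29 were called in Xbp1-Ire1 KO and 26 in Xbp1 KO. That block compares only libraries whose number occurs in both subsets. In WT these are the fl-fl libraries, which alone gave the same 30 genes, and in each knockout a library of each subset is set aside. Elsewhere the title number block moved no genotype count but the one named. Depth limits Oas2, which had 0 counts over cDC1 Xbp1 KO and for which a bound is given.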
